A study of Mus musculus with 23 samples.

Results

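The genes described are 9 inhibitory immune checkpoint genes, the receptors Pdcd1 (PD-1), Ctla4, Lag3, Havcr2 (TIM-3), Tigit and Btla and the ligands Cd274 (PD-L1), Pdcd1lg2 (PD-L2) and Cd276 (B7-H3). They were taken by symbol from the 770 genes of an nCounter immune panel, in which a barcoded probe is counted for each gene without amplification. The tumours were grown from E0771 luc2 GFP cells, a mouse mammary cancer line that carries luciferase and green fluorescent protein, injected intra-ductally into female C57BL/6J mice of 6 to 8 weeks with an intact immune system. Treatment ran from day 9 to cull on day 23 and was placebo (P, 6 tumours), Anakinra, which blocks the receptor of interleukin-1, given daily at 1 mg/kg (A, 5 tumours), doxorubicin at 2 mg/kg weekly followed by zoledronic acid at 100 µg/kg weekly (DZ, 6 tumours), or all 3 drugs (ADZ, 6 tumours). All 23 tumours thus shared the cell line, the mouse strain and the graft, and the groups were set apart by their drugs. Placebo and Anakinra were given under the skin and doxorubicin into a vein. Whether mice without doxorubicin also had an injection into a vein is not described. The A and DZ tumours are described as coming from separate animals. Nothing is said on this for P and ADZ, where a mouse could carry several tumours, so that the p-values for those groups measure the spread between tumours.

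Checkpoint receptors are carried mainly by T cells that have met their antigen, and they dampen the signal of the T cell receptor when they bind their ligands on tumour cells or on other leucocytes. PD-1 and CTLA-4 are the targets of the antibodies most used in cancer immunotherapy, and regulatory T cells, which suppress other T cells, hold CTLA-4 constantly. Interferon gamma, which activated CD8 and helper T cells release, is known to induce PD-L1 on tumour cells and macrophages.

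Levels are log2 normalized counts. Each tumour's probe counts had been scaled so that the mean log2 value of 20 reference genes is 11.4. The tumours gave 882537 to 1677295 gene counts, with factors of 0.759 to 1.57 (median 0.944 for placebo, 0.927 for A, 1.31 for DZ, 0.988 for ADZ), and the background of a tumour (2 SD above the mean of the negative control probes) lay between 4.06 and 5.37. Apart from Btla, which was above background in 16 tumours, the genes were so in all 23 tumours. Ptprc (CD45), which marks leucocytes, was above background in 23 of 23 tumours, and so were, on average over the tumours, 8 of the 8 epithelial and tumour cell genes on the panel and 12 of 14 T cell genes. In bulk tissue, fewer cells of a type and less RNA per cell cannot be told apart. Placebo replicate 4 stood apart from the others. Its mean over 17 B cell and lymph node genes was 8.77 against 4.08 to 5.22 in the other 22 tumours, and its mean over the T cell genes was 7.85 against 4.83 to 6.73. Results on the 9 genes that rest on this tumour are mostly given with and without it. Differences of single genes of the other lists against placebo are given only with it. Probes differ in efficiency, so that levels are compared between tumours and not between genes.

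**Figure D1:**
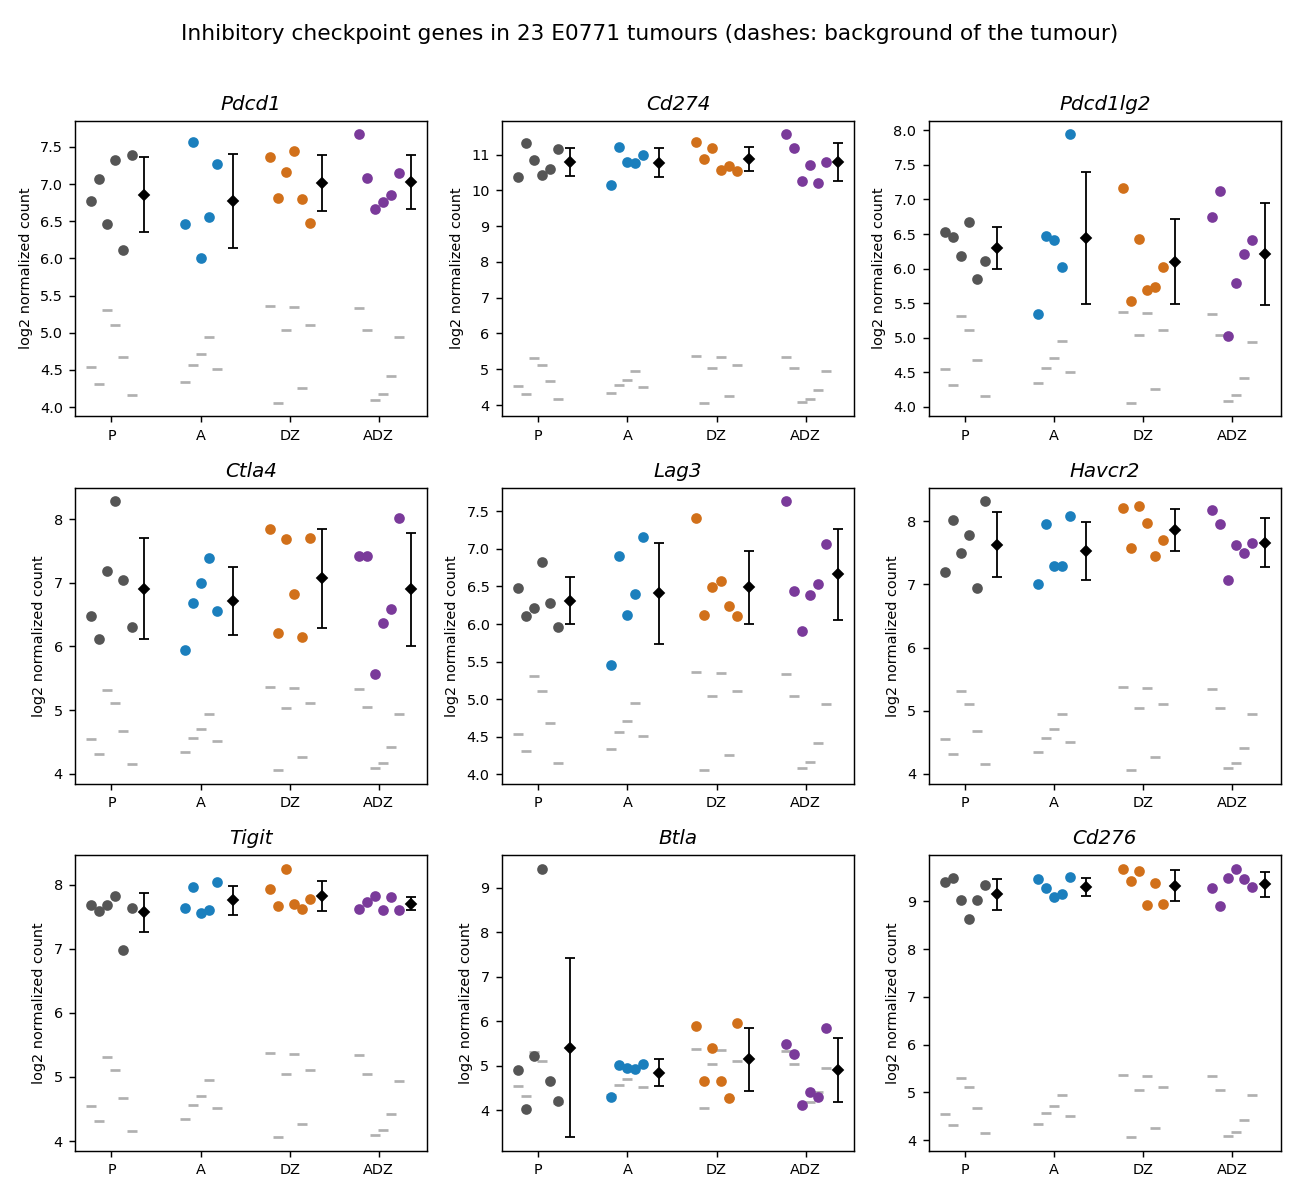
Levels of the 9 checkpoint genes as log2 normalized counts (vertical axes, 1 panel per gene) in the 6 P, 5 A, 6 DZ and 6 ADZ tumours. Points are tumours, diamonds with bars are group means and SD, and grey dashes mark the background of each tumour. All groups overlapped for every gene, as they did for nearly the whole panel, and the Btla level of 9.43 in 1 placebo tumour lies far above the others.

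Within the PD-1 axis, the levels of the receptor and of its ligands overlapped between all 4 groups. Pdcd1, the receptor, had a lowest, median and highest level of 6.12, 6.92 and 7.40 in P, 6.47, 6.99 and 7.44 in DZ, and 6.66, 6.96 and 7.67 in ADZ. In A its levels were 6.47, 7.56, 6.01, 6.55 and 7.27. The A tumours thus spanned nearly the whole range of the series, with the lowest level of all 23 tumours among them. Cd274, the ligand that tumour cells and macrophages display, had levels of 10.38, 10.72 and 11.32 (lowest, median, highest) in P, 10.55, 10.78 and 11.37 in DZ and 10.20, 10.75 and 11.57 in ADZ. The A tumours had 10.15, 11.20, 10.78, 10.76 and 10.9999. These were the most alike group means of the 9 genes, with 10.79 ± 0.39 for placebo (SD, n = 6), 10.78 ± 0.40 for A (n = 5), 10.87 ± 0.34 for DZ (n = 6) and 10.79 ± 0.53 for ADZ (n = 6), and membership of a group took up 1.01% of the variance over the tumours, against a median of 6.49% over the panel. Pdcd1lg2, the ligand best known from dendritic cells and macrophages, ranged from 5.84 over a median of 6.32 to 6.67 in P, from 5.53 over 5.88 to 7.17 in DZ and from 5.02 over 6.31 to 7.12 in ADZ. Its levels in A were 5.35, 6.48, 6.41, 6.02 and 7.94. The highest level of the series, 286 counts against 39 to 128 in the other 22 tumours, thus lay in A, and all groups overlapped.

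Cd274 and Pdcd1lg2 are neighbours on chromosome 19 with 22823 bases between them. Their promoters are shown, with that of Cd276 for contrast, since both rose with Ifng over the tumours whereas Cd276 rose with the epithelial genes Erbb2 and Itga6. The sequences are the 250 bases before the transcript start in RefSeq (build GRCm38.p6), 5′ to 3′ on the strand of the gene, at chr19:29367188-29367437 (plus strand) for Cd274, chr19:29410669-29410918 (plus strand) for Pdcd1lg2 and chr9:58555034-58555283 (minus strand) for Cd276. The window of Cd274 belongs to a transcript that starts inside the annotated gene, whose first base is 29362107. Capitals mark CpG dinucleotides.
Cd274: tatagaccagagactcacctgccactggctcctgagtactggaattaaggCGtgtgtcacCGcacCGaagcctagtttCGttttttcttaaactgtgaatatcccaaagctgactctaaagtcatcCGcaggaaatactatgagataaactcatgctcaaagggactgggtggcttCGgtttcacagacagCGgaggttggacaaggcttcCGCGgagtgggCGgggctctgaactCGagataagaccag
Pdcd1lg2: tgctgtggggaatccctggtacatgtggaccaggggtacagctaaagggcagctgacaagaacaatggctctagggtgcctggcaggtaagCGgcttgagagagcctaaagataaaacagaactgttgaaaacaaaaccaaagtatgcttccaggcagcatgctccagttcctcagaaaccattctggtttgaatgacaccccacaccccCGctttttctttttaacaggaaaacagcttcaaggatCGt
Cd276: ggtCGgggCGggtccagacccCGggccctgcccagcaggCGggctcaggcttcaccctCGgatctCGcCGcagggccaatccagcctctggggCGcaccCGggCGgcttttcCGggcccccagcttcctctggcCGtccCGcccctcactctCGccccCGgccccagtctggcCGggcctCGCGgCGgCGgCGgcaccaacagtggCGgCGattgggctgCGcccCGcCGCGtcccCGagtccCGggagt
The Cd274 window holds 11 CpG at a GC content of 50.4%, the Pdcd1lg2 window 3 CpG at 48.4%, and the Cd276 window 29 CpG at 77.6%, where the median of 32851 mouse promoters is 6 CpG and 52.4%. Of all promoters, 97.6% had a lower GC content than that of Cd276. Letters that IRF, STAT, AP-1 and NFAT factors bind were searched on both strands of the 8 promoters in the table (Lag3 is not among them). Neither the IRF element, found in 2.98% of all promoters, nor the GAS element TTCNNNGAA, found in 7.02%, was present in any of the 8 windows. The AP-1 element TGANTCA, found in 6.75% of all promoters, was present in that of Havcr2 alone, and the NFAT core GGAAAA, found in 20.4%, in those of Pdcd1lg2, Ctla4, Tigit and Cd276. A match is a description of the letters, and a missing match says only that these letters are not in the window.

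Ctla4 and Btla, receptors of the CD28 family and of the herpesvirus entry mediator, overlapped between all groups as well. Ctla4 had a lowest, median and highest level of 6.12, 6.77 and 8.28 in P, 6.15, 7.25 and 7.85 in DZ and 5.57, 7.0005 and 8.02 in ADZ. In A it was at 5.95, 6.69, 6.999, 7.39 and 6.55. Each group held both low and high tumours, and the highest was placebo replicate 4. Btla, carried by B cells and resting T cells, was near background with 19 to 50 counts in 22 tumours and 529 counts in placebo replicate 4. Its lowest, median and highest levels were 4.03, 4.77 and 9.43 in P, 4.27, 5.03 and 5.97 in DZ and 4.13, 4.83 and 5.84 in ADZ. The A tumours had 4.29, 5.02, 4.95, 4.93 and 5.03. Btla exceeded background in 3 of 6 P, 3 of 5 A, 5 of 6 DZ and 5 of 6 ADZ tumours. Its mean in placebo was 5.40 ± 2.02 (SD, n = 6), and 4.60 over the 5 tumours other than replicate 4.

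The remaining receptors were Lag3, which binds MHC class II, Havcr2, which marks exhausted T cells and also sits on macrophages and dendritic cells, and Tigit, which binds the nectin family proteins Pvr and Pvrl2 on tumour cells. Lag3 ran from 5.96 over a median of 6.25 to 6.83 in P, from 6.11 over 6.37 to 7.40 in DZ and from 5.90 over 6.49 to 7.63 in ADZ. In A it stood at 5.45, 6.90, 6.12, 6.40 and 7.16. The highest tumour of each drug group lay above every placebo tumour, and the lowest of A and of ADZ below every placebo tumour. Havcr2 had levels of 6.95, 7.64 and 8.31 (lowest, median, highest) in P, 7.45, 7.84 and 8.24 in DZ and 7.06, 7.64 and 8.18 in ADZ, and 7.01, 7.95, 7.29, 7.30 and 8.09 in A. Its DZ tumours were the most even, and the placebo tumours spanned the levels of all other tumours. Tigit had the smallest spread of the 9 genes, with an SD of 0.23 over all tumours. Its lowest, median and highest levels were 6.98, 7.66 and 7.83 in P, 7.62, 7.74 and 8.25 in DZ and 7.60, 7.68 and 7.83 in ADZ. The A tumours were at 7.64, 7.97, 7.56, 7.60 and 8.04. Apart from placebo replicate 5 at 6.98, all tumours lay between 7.56 and 8.25.

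Cd276, a B7 family ligand that carcinoma and stromal cells carry, had levels of 8.63, 9.19 and 9.49 (lowest, median, highest) in P, 8.93, 9.40 and 9.68 in DZ and 8.91, 9.39 and 9.69 in ADZ. In A they were 9.47, 9.29, 9.09, 9.15 and 9.50. Its range over the 23 tumours, 1.06, was the narrowest of the 9 genes, and placebo replicate 4, the tumour richest in lymphocyte genes, had the lowest level.

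The first question was whether treatment changed these genes against placebo. None of the 9 passed an adjusted p of 0.05 in limma (Benjamini-Hochberg over 770 genes) for A, DZ or ADZ, as was true of the whole panel, where percent called was 0 in each comparison. The groups overlapped for all 9 genes in every comparison, beside 0% of the panel without overlap in each comparison except A against DZ, where it was 0.649%. At an unadjusted p of 0.05 none of the 9 was called either, with 1.17% of the panel called for A, 1.56% for DZ and 1.43% for ADZ. For Anakinra alone the differences lay between -0.56 (Btla) and 0.19 (Tigit) log2 units, and 5 of the 9 genes were lower and 4 higher, beside 66.6% and 33.4% of the panel. Cd274 differed by -0.0091 (SE 0.25, 95% interval -0.53 to 0.51), so that the interval allows at most a 1.43-fold rise or a fall to 0.692 of placebo. Under doxorubicin and zoledronic acid 7 of the 9 genes were higher and 2 lower, beside 57.5% and 42.5% of the panel. Tigit had the smallest p, with a difference of 0.26 (SE 0.14, 95% interval -0.042 to 0.55, 1.19-fold, limma adjusted p = 0.9997), which is rank 30 of 770. Without placebo replicate 5, the tumour with the lowest Tigit level, the Tigit difference was 0.14 for DZ and 0.074 for A. Havcr2 differed by 0.23 (SE 0.24) and Cd274 by 0.085 (SE 0.24, 95% interval -0.41 to 0.58). Under the triple combination 6 of the 9 were higher and 3 lower, beside 39.4% and 60.6% of the panel. The largest upward difference was that of Lag3, at 0.35 (SE 0.30, 1.27-fold, 95% interval 0.832 to 1.95, limma adjusted p = 0.99999), followed by Cd276 at 0.21 (SE 0.17). Cd274 differed by 0.0010 (SE 0.24, 95% interval -0.50 to 0.50) and Pdcd1 by 0.17 (SE 0.27).

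Without placebo replicate 4 the genes that were higher numbered 7 of 9 in place of 4 for A, 8 in place of 7 for DZ and 7 in place of 6 for ADZ, and the median of all 770 genes moved from -0.085 to 0.026, from 0.036 to 0.15 and from -0.046 to 0.059. The Btla difference turned from -0.56 to 0.25 for A, from -0.26 to 0.54 for DZ and from -0.51 to 0.30 for ADZ, and the SE fell from 0.64 to 0.35 for DZ. Pdcd1 turned from -0.085 to 0.0084 for A. Ctla4 turned from -0.19 to 0.087 for A and from -0.0063 to 0.27 for ADZ, and moved from 0.17 to 0.44 for DZ. None of these passed the threshold with or without the tumour.

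**Figure D2:**
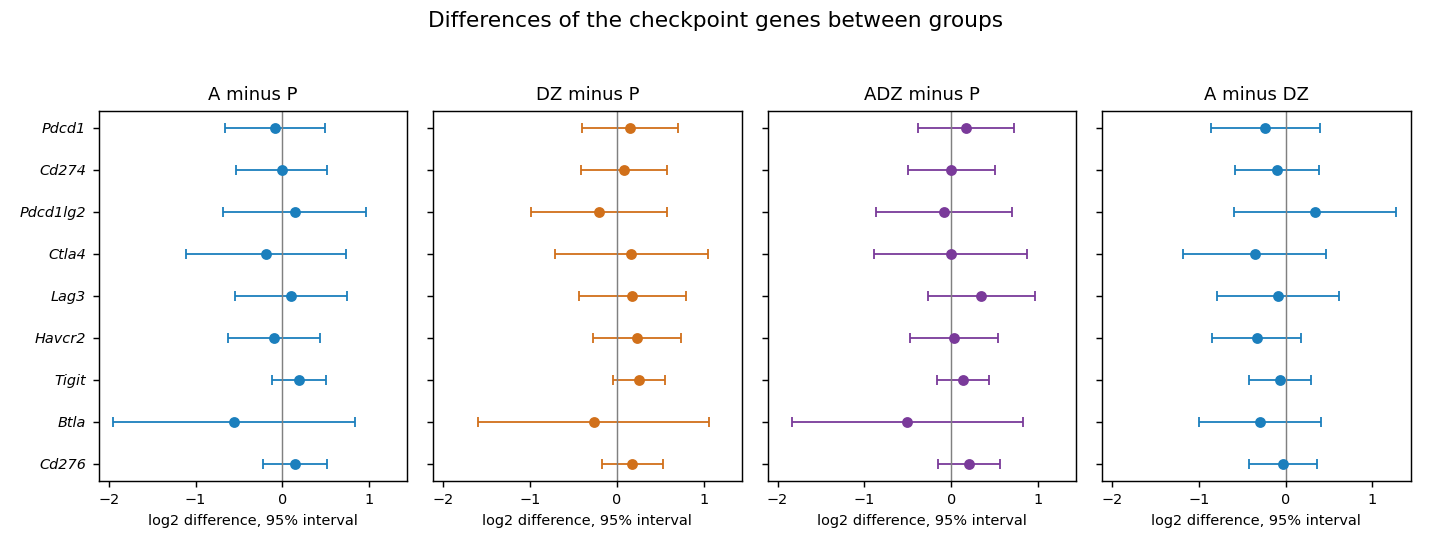
Differences of the 9 checkpoint genes (vertical axis) in log2 units (horizontal axis) for A, DZ and ADZ against P and for A against DZ. Points are limma estimates, bars are 95% intervals, and every interval includes 0.

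The drugs were also set against each other. Between A and DZ, fitted on their own 11 tumours, 8 of the 9 genes were lower in A and 1 higher, beside 74.7% and 25.3% of the panel. None was called, at 0% of the panel by adjusted p and 4.29% by an unadjusted p of 0.05, of which 4.16% were lower. Havcr2 had the smallest p among them, at -0.33 (SE 0.24, 95% interval -0.84 to 0.18, limma adjusted p = 0.995). Ctla4 differed by -0.36 (SE 0.38), and Pdcd1lg2, the exception in direction, by 0.34 (SE 0.43). Adding Anakinra to DZ left all 9 genes between -0.24 and 0.17, 4 higher and 5 lower (28.2% and 71.8% of the panel; 8 higher with recentring on the panel median, which moved the median of all genes from -0.11 to 0.096), with none called and 1.04% of the panel called at the unadjusted p. Adding DZ to Anakinra left them between -0.23 and 0.26, 7 higher and 2 lower (59.2% and 40.8% of the panel), with none called and 0.13% of the panel called. A test of whether Anakinra acted differently with and without chemotherapy (the interaction) called none of the 9 and 0% of the panel, with 4 above 0 and 5 below (47.8% and 52.2% of the panel). Those above 0 were 1 without placebo replicate 4 and 0 with the T cell mean as a covariate. Its smallest p was again that of Tigit, at -0.31 (SE 0.21, limma adjusted p = 0.996, rank 15 of 770), beside 0.26% of the panel at the unadjusted p. Over fits that each left out 1 tumour, the Tigit value ran from -0.37 to -0.20. The scaling moved some differences, with no gene passing the adjusted threshold. With tumours recentred on the panel median, 8 of the 9 genes were higher in A than in P in place of 4, and the median of all 770 genes moved from -0.085 to 0.13, with placebo replicate 4 at the highest panel median (9.09 against 7.81 to 8.64). At the unadjusted p of 0.05, 1 of the 9 genes was then called in A and 1 in ADZ, beside 9 and 16 of the 770 panel genes. After quantile normalization it was also 1 in each, beside 11 and 22 of 770. With recentring these were Tigit in A, which differed by 0.41 (SE 0.18, limma adjusted p = 0.946), and Lag3 in ADZ, by 0.53 (SE 0.25, limma adjusted p = 0.934). With the T cell mean as a covariate, 1 of the 9 was called in DZ and 1 in ADZ against P, beside 46 and 19 of 770. With Ptprc as a covariate, 1 was called in A against DZ, beside 48 of 770.

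The gap between the highest and the lowest group mean was smaller than the mean SD within groups for all of the genes except Tigit (0.26 against 0.22). The lowest Tigit mean was that of placebo, which held replicate 5 at 6.98. The genes were next related to each other and to the leucocyte content over the 23 tumours. Relations were tested by 100000 permutations, two-sided, for which 1e-05 is the smallest p, with Benjamini-Hochberg adjustment within a family. Of 36 pairs of checkpoint genes 15 passed an adjusted p of 0.05, of 45 relations to cell content levels 20, and of 46 relations to binding partners and T cell genes 24. Of these 59 relations, 11 kept their call under all 6 alternatives (a pseudocount, recentring on the panel median, quantile normalization, values raised to background, the factor of the tumour regressed out, and placebo replicate 4 left out). Of these, 5 joined Pdcd1, Havcr2, Cd274, Pdcd1lg2 and Lag3 to each other, 3 joined Cd274, Havcr2 and Pdcd1lg2 to Ifng, and 3 joined Ctla4 and Btla to Cd4 or Btla to the T cell mean.

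**Figure D3:**
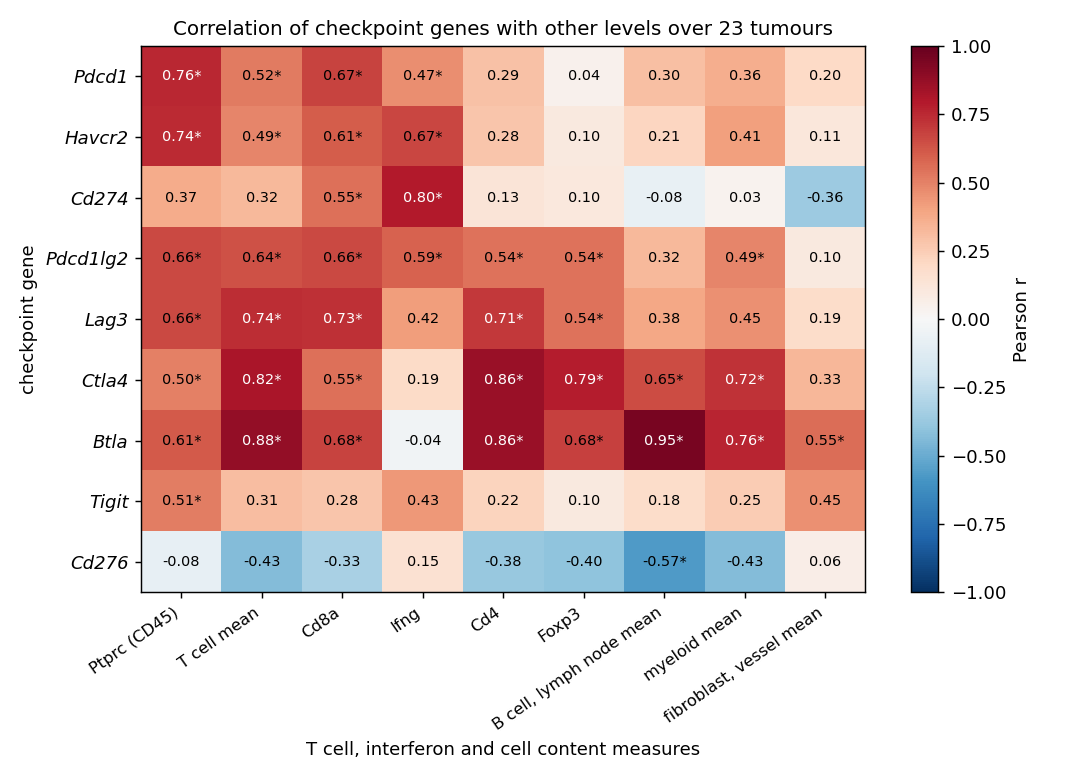
Pearson r over 23 tumours (colour and number) between each checkpoint gene (rows) and Ptprc, 4 marker gene means and 4 single genes (columns). Stars mark an adjusted permutation p under 0.05 within the family of the relation. Ifng is tied to Cd274, Havcr2, Pdcd1lg2 and Pdcd1, and Cd4 to Ctla4, Btla, Lag3 and Pdcd1lg2.

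Among pairs of checkpoint genes, the tightest was Pdcd1 and Havcr2 (r = 0.82, p = 1e-05, adjusted p = 0.00018, rho = 0.82, p = 1e-05). It was 0.82 without the 2 tumours farthest from the median of Pdcd1, 0.83 within groups and 0.83 without placebo replicate 4. Cd274 and Havcr2 followed at r = 0.77 (p = 2e-05, adjusted p = 0.00024, rho = 0.72, p = 0.00022, 0.71 without the 2 farthest tumours). Lag3 was tied to Pdcd1lg2 (r = 0.70, adjusted p = 0.0021, rho = 0.66) and to Pdcd1 (r = 0.65, adjusted p = 0.0045, rho = 0.66). The receptor Pdcd1 rose with its ligand Cd274 (r = 0.54, p = 0.00756, adjusted p = 0.0227, rho = 0.53, p = 0.0107), whereas the relation with its other ligand, Pdcd1lg2, missed the threshold (r = 0.45, adjusted p = 0.0667). The neighbouring ligands were themselves related at r = 0.56 (adjusted p = 0.0202), which fell to 0.46 (adjusted p = 0.0725) with recentring on the panel median.

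Cd274 rose with Ifng, the gene of interferon gamma (r = 0.80, p = 1e-05, adjusted p = 9.2e-05, rho = 0.78, p = 2e-05). Without the 2 tumours farthest from the median of Ifng it was 0.75, within groups 0.80, and under the 6 alternatives it was 0.71 to 0.83. With values raised to background it was 0.78, although Cd274 was above background in all 23 tumours. Ifng was thus not above background in every tumour. Havcr2 (r = 0.67, adjusted p = 0.0021) and Pdcd1lg2 (r = 0.59, adjusted p = 0.0076) also rose with Ifng, and Pdcd1 did so more weakly (r = 0.47, adjusted p = 0.0478), with the call lost on recentring or with the factor regressed out. Ctla4 (r = 0.19) and Btla (r = -0.035) did not pass the test. Cd8a, a chain of the CD8 coreceptor, was related to 7 of the 9 genes, at r = 0.73 for Lag3, 0.67 for Pdcd1, 0.66 for Pdcd1lg2 and 0.61 for Havcr2. After quantile normalization these were 0.49, 0.47, 0.41 and 0.31, and none of them passed. Without placebo replicate 4 the relations of Cd8a to Ctla4 (r = 0.42) and Btla (0.46) no longer passed. For Cd274 the r with Cd8a was 0.55 (adjusted p = 0.0145), and 0.37 (adjusted p = 0.133) with recentring. Without placebo replicate 4 it was 0.84, where Ifng had 0.78. That tumour had high T cell genes and a Cd274 level of 10.42, higher than in 4 of the other 22 tumours. The relation of Cd274 to the T cell mean, 0.32 with all tumours (adjusted p = 0.183), was 0.66 without it (adjusted p = 0.0032).

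**Figure D4:**
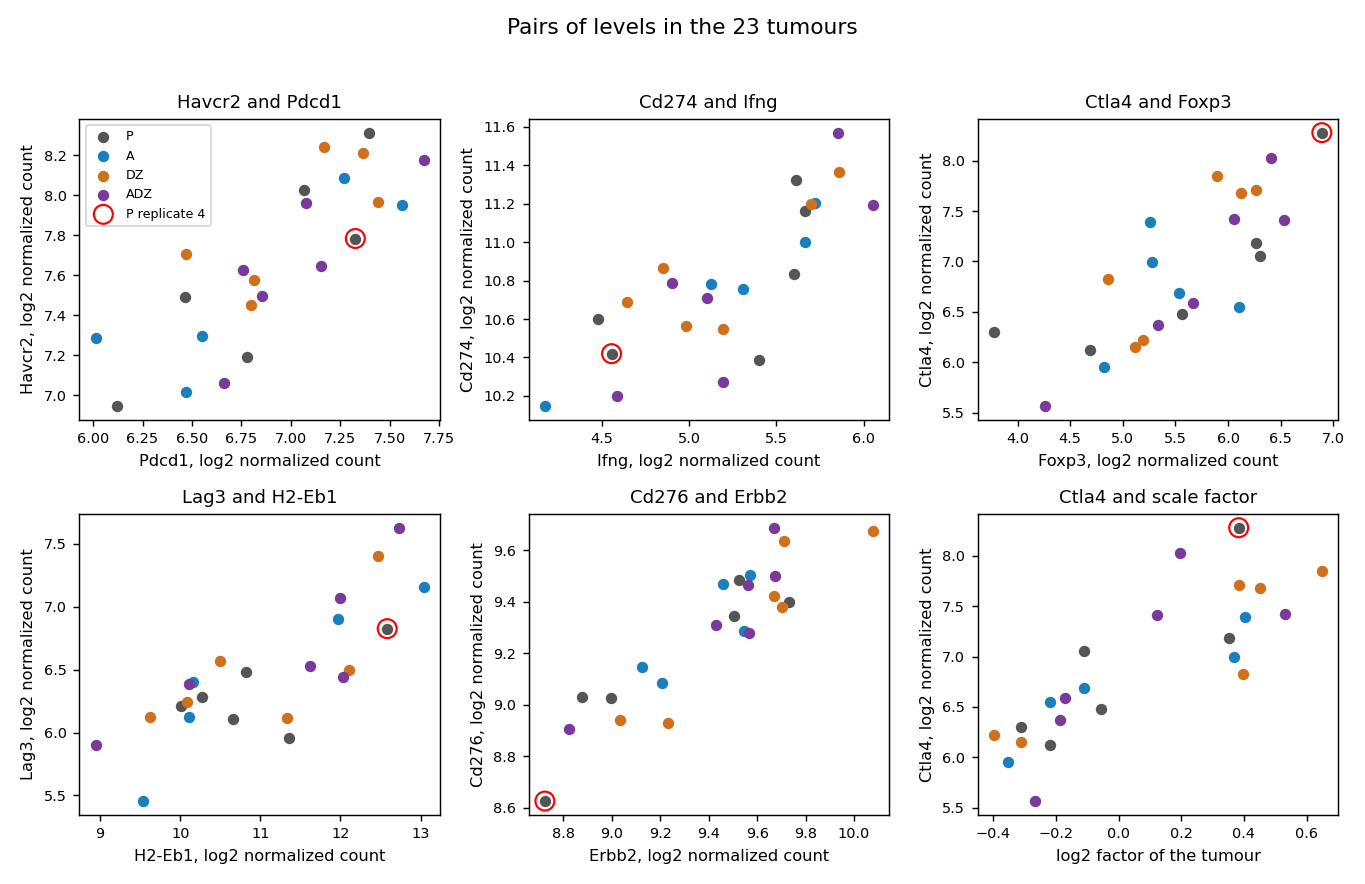
Pairs of levels in the 23 tumours, all in log2 normalized counts except for the log2 factor of the tumour in the last panel. Points are tumours coloured by group and the red circle marks placebo replicate 4. Havcr2 rises with Pdcd1 (r = 0.82), Cd274 with Ifng (0.80), Ctla4 with Foxp3 (0.79), Lag3 with H2-Eb1 (0.79), Cd276 with Erbb2 (0.91) and Ctla4 with the factor (0.84).

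Ctla4 and Btla rose with Cd4 and Foxp3. Ctla4 was related to Cd4, the coreceptor of helper and regulatory T cells, at r = 0.86 (p = 1e-05, adjusted p = 9.2e-05, rho = 0.87, p = 1e-05) and to Foxp3, the factor that defines regulatory T cells, at r = 0.79 (p = 2e-05, adjusted p = 0.00015, rho = 0.81, p = 2e-05). Without the 2 tumours farthest from the median these were 0.82 and 0.78. With values raised to background Ctla4 and Foxp3 had r = 0.82, although Ctla4 was above background in all 23 tumours. Foxp3 was thus not above background in every tumour. Btla was related to Cd4 at r = 0.86 (adjusted p = 9.2e-05, rho = 0.83) and to Foxp3 at 0.68 (adjusted p = 0.0011, rho = 0.80). Without placebo replicate 4 the r of Btla was 0.83 with Cd4 and 0.76 with Foxp3. Pdcd1 and Foxp3, by comparison, had r = 0.040, and the difference between these correlations was not tested. The relations to Foxp3 depended on the scaling. After quantile normalization r was 0.49 (adjusted p = 0.0573) for Ctla4 with Foxp3 and 0.14 (adjusted p = 0.641) for Btla with Foxp3. With recentring Btla and Foxp3 had r = 0.50 (adjusted p = 0.0656). Ctla4 and Btla were related to each other at r = 0.78 (p = 1e-05, adjusted p = 0.00018, rho = 0.90), which was 0.90 without placebo replicate 4 and 0.29 (adjusted p = 0.185) after quantile normalization. Btla was tied closest to the B cell and lymph node mean, at r = 0.95 with all tumours and 0.84 without placebo replicate 4 (adjusted p = 0.00015), although only 7 of the 17 genes of that list had a mean above background. After quantile normalization this r was 0.92 and no longer passed (adjusted p = 0.0863). Lag3 had r = 0.71 for Cd4, 0.54 for Foxp3 and 0.74 for the T cell mean (0.88 without placebo replicate 4). After quantile normalization these were 0.14, 0.14 and 0.27, and none of them passed.

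The factor of the tumour moved with some of these genes. It was above 1 where the reference genes had few counts, and its log2 was related to Ctla4 at r = 0.84 (adjusted p = 9e-05), to Btla at 0.57 (adjusted p = 0.0026) and to Lag3 at 0.52 (adjusted p = 0.035, and 0.0519 without placebo replicate 4), and to the T cell mean at 0.65. Without placebo replicate 4 its r was 0.77 with Btla and 0.78 with the B cell and lymph node mean. For Ctla4 the recovered counts, to which no factor had been applied, rose with the factor as well (r = 0.57). The r of the counts was 0.31 for Btla and -0.17 for Lag3, and these r of counts were not tested. With the factor regressed out, Ctla4 and Cd4 kept r = 0.70 (adjusted p = 0.0013), Btla and Cd4 0.79 (adjusted p = 0.00054), and Ctla4 and Foxp3 0.75 (adjusted p = 0.00054). Without placebo replicate 4 these 3 values were 0.62, 0.61 and 0.71. Btla and the B cell and lymph node mean had 0.95 with the factor regressed out, and 0.69 with placebo replicate 4 also left out. For Ctla4 and Btla these were 0.67 and 0.70. Calls were lost for Lag3 with Foxp3 (r = 0.37, adjusted p = 0.139), Lag3 with Ctla4 (0.29, adjusted p = 0.326), Lag3 with Havcr2 (0.46), Lag3 with Cd274 (0.44), Ctla4 with Ptprc (0.45, adjusted p = 0.082), Ctla4 with Cd8a (0.41) and Pdcd1lg2 with Cd4 (0.44) and Foxp3 (0.45), among others. The other 6 genes had r of -0.38 to 0.36 with the factor, and none of them passed the test.

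Leucocyte content as a whole, read from Ptprc, was related to 7 of the 9 genes, at r = 0.76 for Pdcd1 and 0.74 for Havcr2, and least for Ctla4 (0.50) and Tigit (0.51) among those that passed. Cd274 (r = 0.37, adjusted p = 0.138) and Cd276 (r = -0.084, adjusted p = 0.754) did not pass. Without placebo replicate 4 Ctla4 (r = 0.38) and Btla (0.44) no longer passed, and Cd274 did (0.55, adjusted p = 0.0204). These relations depended on the scaling. The median of the panel, which is an immune panel, was itself related to Ptprc at r = 0.85, and with recentring on it the relations were 0.46 for Pdcd1 (adjusted p = 0.0694) and 0.37 for Havcr2 (adjusted p = 0.151).

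Of the receptors with a binding partner on the panel, Lag3, which binds MHC class II, rose with genes of that class. These were H2-Eb1 (r = 0.79, adjusted p = 9.2e-05, rho = 0.78), H2-Ab1 (0.76) and H2-Aa (0.71), though each of these lost its call after quantile normalization (r = 0.25 for H2-Eb1). Btla and its ligand Tnfrsf14 had r = 0.56 (adjusted p = 0.0083), and Havcr2 and its ligand Ceacam1 0.49 (adjusted p = 0.0306), and these turned to -0.022 and -0.14 with recentring. Ctla4 with its ligands Cd80 (r = -0.16) and Cd86 (0.44, adjusted p = 0.061) and Tigit with Pvr (0.46, adjusted p = 0.061) and Pvrl2 (0.41) did not pass.

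The panel genes most alike to each checkpoint gene, by Pearson r over the 23 tumours among 624 genes with a mean above background, were named next. For Pdcd1 they were Klra2 (r = 0.89), Cxcr6 (0.87), a chemokine receptor of tissue T cells, and H2-Dma (0.86). Those of Cd274 were Fpr2 (0.81), Ifng (0.80) and Irf1 (0.79), the transcription factor that interferon gamma induces. Without placebo replicate 4 they were Cd8a (0.84), Itgal (0.83) and Fpr2 (0.80). Havcr2 was most alike to Cd244 (0.91), Klra2 (0.88) and Fpr2 (0.83). For Pdcd1lg2 they were the MHC class II gene H2-Eb1 (0.85), Cd74 (0.84) and the dendritic cell integrin Itgax (0.82). Lag3 was nearest to Cd6 (0.85), Il18r1 (0.82) and Fut7 (0.81), and Ctla4 to Mill2 (0.93), the integrin Itgae (0.92) and Tyk2 (0.91). Btla had H2-Ob (0.95), Ltb (0.94) and Mef2c (0.91), which are B cell and lymphoid genes, at 0.84, 0.80 and 0.82 without placebo replicate 4. None of these was among its nearest without that tumour, which were Tyk2 (0.89), Mill2 (0.88) and Nfatc2 (0.85). Tigit, the flattest of the genes, had the weakest neighbours, the complement gene C2 (0.75), Tnfrsf10b (0.74) and H2-K1 (0.72), with rho of 0.55, 0.61 and 0.54.

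The nearest neighbours of Cd276 were the growth factor receptor Erbb2 (r = 0.91, rho = 0.83), the nectin Pvrl2 (0.88) and the laminin-binding integrin Itga6 (0.86). Erbb2 and Itga6 are among the listed epithelial and tumour cell genes, and the relation of Cd276 to the mean of that list was not tested. Without placebo replicate 4 these r were 0.89, 0.88 and 0.80, and Il17ra (0.85) took the place of Itga6. Cd276 took part in the only negative relations that passed the test, to the B cell and lymph node mean (r = -0.57, adjusted p = 0.0145) and to Btla (r = -0.55, adjusted p = 0.0227). Both rested on placebo replicate 4, without which they were -0.28 (adjusted p = 0.273) and -0.24 (adjusted p = 0.366).

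The wider pathway was described by the same counts. None of 16 binding partners on the panel was called in any comparison. Of the whole panel, 33.4% were higher in A than in P, 57.5% in DZ, 39.4% in ADZ and 25.3% in A against DZ. Of the partners, 6 were higher and 10 lower in A than in P, 8 and 8 in DZ, 8 and 8 in ADZ, and 4 and 12 in A against DZ. The smallest p were those of Cd80 (-0.29, SE 0.19), H2-Ea-ps (-0.39, SE 0.36) and Ceacam1 (-0.21, SE 0.25) in A, and of Pvr (0.28, SE 0.18), Cd28 (0.37, SE 0.32) and H2-DMb2 (-0.51, SE 0.57) in DZ. In ADZ they were those of Ceacam1 (-0.32, SE 0.24), Pvr (0.17, SE 0.18) and Cd80 (-0.17, SE 0.18), and in A against DZ those of Cd80 (-0.28, SE 0.15), Ceacam1 (-0.30, SE 0.20) and Cd28 (-0.36, SE 0.28). The median difference of the partners was -0.099, 0.0099 and -0.049 against placebo, beside -0.085, 0.036 and -0.046 for all 770 genes, and that of the 9 checkpoint genes was -0.0091, 0.17 and 0.036.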

How the data were processed

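RNA of the 23 tumours was counted with nCounter probes for mouse immune genes. Normalization by the authors used the Advanced Analysis 2.0 module of nSolver 4.0. The deposited log2 values equal the log2 of a count multiplied by a factor that is the same for all genes of a tumour. Whether background was subtracted is not given in the sources used here. Of the 784 rows, 770 are genes, 6 positive and 8 negative controls. Counts were recovered by dividing out the factor (100% whole within 0.05), and 6 values of exactly 0 were kept. Differences were tested with limma 3.58.1 in R 4.3.3 (lmFit, eBayes, two-sided), A against DZ on 11 tumours and all else on 23. The labels give no batch. The test and the permutations were checked on simulated data. The members and lists were chosen with earlier results of these data known. Named genes are the 9 members, the 3 list genes with the smallest p in a comparison, the 3 panel genes most alike to each member, and Ptprc. Alternatives were a pseudocount of 1, a filter at a mean of 20 normalized counts, 2 scalings, values raised to background, a replicate block, other tumours in the fit, voom on recovered counts, 2 covariates and each tumour left out. The relations among members and with single genes, and the alternatives with the factor regressed out or without placebo replicate 4 in relations, were chosen after seeing the data. Promoters came from RefSeq, where 8 of the 9 members matched. Python 3.11.15 and matplotlib 3.10.9 drew the figures.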

Additional observations from a re-analysis of the deposited data

Results flagged for a closer look

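Within groups of 5 or 6 tumours, 8 of 56 groups held a tumour whose gap to the nearest other exceeded Dixon's 95% critical value, and 4 of these were among the 36 groups of the checkpoint genes. Chance flags about 1 in 20 independent groups. The 56 are related measures on the same tumours, and several flags were of placebo replicate 4. Lag3 was 7.40 in DZ replicate 1, the other DZ tumours being at 6.11 to 6.57. Tigit was 6.98 in placebo replicate 5, against 7.60 to 7.83 in the rest of the group. Btla was 9.43 in placebo replicate 4, against 4.03 to 5.21, and 4.29 in A replicate 1, against 4.93 to 5.03, where the lower level lay at or below background. Placebo replicate 4 was also the highest of its group in the T cell mean (7.85 against 5.47 to 5.95), the myeloid mean (11.8 against 9.73 to 10.3) and the B cell and lymph node mean (8.77 against 4.37 to 4.69). The myeloid mean of ADZ replicate 3 was 8.80, against 9.95 to 10.48 in the other ADZ tumours.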

How the results depend on the processing

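No checkpoint gene passed an adjusted p of 0.05 under any alternative, but directions of small differences turned. With tumours recentred on the panel median, the sign turned in A minus P for Pdcd1 (0.13), Cd274 (0.21), Ctla4 (0.029), Havcr2 (0.12), and in ADZ minus P for Pdcd1lg2 (0.094), Ctla4 (0.17), and in A minus DZ for Pdcd1 (0.0044), Cd274 (0.15), Lag3 (0.16), Tigit (0.18), Cd276 (0.21), and in the r of Cd274 with the T cell mean (-0.022), Cd274 with Ptprc (-0.025), Havcr2 with the T cell mean (-0.024), Tigit with the T cell mean (-0.39), Tigit with Ptprc (-0.25), Btla with Tnfrsf14 (-0.022), Havcr2 with Ceacam1 (-0.14). After quantile normalization, the sign turned in A minus P for Pdcd1 (0.15), Cd274 (0.085), Ctla4 (0.018), Havcr2 (0.21), and in ADZ minus P for Pdcd1lg2 (0.10), Ctla4 (0.18), and in A minus DZ for Lag3 (0.096), Tigit (0.12), Cd276 (0.14), and in the r of Pdcd1lg2 with the myeloid mean (-0.26), Havcr2 with the T cell mean (-0.0050), Tigit with the T cell mean (-0.46), Tigit with Ptprc (-0.43), Ctla4 with Pdcd1lg2 (-0.074), Pdcd1lg2 with Cd4 (-0.011), Ctla4 with Cd8a (-0.032). With the T cell mean as a covariate, the sign turned in A minus P for Pdcd1 (0.017), Cd274 (0.047), Ctla4 (0.068), and in DZ minus P for Btla (0.069), and in ADZ minus P for Pdcd1lg2 (0.035), Ctla4 (0.17). With Ptprc as a covariate, the sign turned in A minus P for Pdcd1 (0.049), Cd274 (0.048), Havcr2 (0.020), and in ADZ minus P for Ctla4 (0.047), and in A minus DZ for Cd274 (0.010), Lag3 (0.13), Tigit (0.034), Cd276 (0.011). With voom on recovered counts, the sign turned in ADZ minus P for Cd274 (-0.032). With the factor of the tumour regressed out, the sign turned in the r of Cd276 with Ptprc (0.043). Without placebo replicate 4 the r of Cd276 with Ptprc was 0.22. Over fits that each left out 1 tumour, A minus P turned sign for Btla (-0.83 to 0.25), Cd274 (-0.12 to 0.15), Ctla4 (-0.36 to 0.087), Havcr2 (-0.24 to 0.040), Lag3 (-0.089 to 0.34), Pdcd1 (-0.28 to 0.10), Pdcd1lg2 (-0.24 to 0.41). In these fits DZ minus P turned sign for Btla (-0.54 to 0.54), Cd274 (-0.013 to 0.19), Lag3 (-0.0012 to 0.28). In these fits ADZ minus P turned sign for Btla (-0.78 to 0.30), Cd274 (-0.16 to 0.12), Ctla4 (-0.23 to 0.27), Havcr2 (-0.10 to 0.17), Pdcd1lg2 (-0.27 to 0.15). In these fits A minus DZ turned sign for Cd274 (-0.20 to 0.063), Cd276 (-0.11 to 0.036), Lag3 (-0.27 to 0.16), Pdcd1lg2 (-0.033 to 0.62), Tigit (-0.13 to 0.021). The relations to cell content that passed the test numbered 12 with recentring and 4 after quantile normalization in place of 20, and those to partners and T cell genes 13 after quantile normalization in place of 24. The cause was not tested. The panel median itself moved from -0.085 to 0.13 for A minus P, from -0.046 to 0.13 for ADZ minus P, from -0.13 to 0.11 for A minus DZ and from -0.11 to 0.096 for ADZ minus DZ with recentring, and the checkpoint genes that were higher went from 4 to 8, 6 to 8, 1 to 6 and 4 to 8 of 9. In the interaction, those above 0 went from 4 to 0 with the T cell covariate and to 1 without placebo replicate 4.

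The replicate numbers were not taken to pair the tumours, since in no comparison did all same-numbered pairs correlate above 0.1. They did so in 4 of 5 pairs between A and placebo, in 1 of 6 between DZ and placebo, in 1 of 6 between ADZ and placebo, in 1 of 5 between A and DZ, in 3 of 6 between ADZ and DZ and in 2 of 5 between ADZ and A. With the replicate block 0 checkpoint genes were called in any comparison. The genes above 0 in the interaction went from 4 to 3, and the counts of higher genes in the 6 comparisons of groups stayed as they were. Tigit in DZ against P differed by 0.26 (SE 0.16). Btla levels near background and 5 to 6 tumours a group limit what could be detected.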

Other observations

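Other inhibitory genes, T cell, cytotoxic and regulatory T cell genes gave no call at the adjusted threshold in any comparison. Of 13 other inhibitory genes, 4 were higher in A than in P, 8 in DZ and 8 in ADZ, beside 33.4%, 57.5% and 39.4% of the panel. The smallest p were those of Klrg1 (-0.35, SE 0.28), Nt5e (0.24, SE 0.27) and Cd22 (-0.40, SE 0.69) in A, of Nt5e (0.65, SE 0.25), Cd47 (0.19, SE 0.12) and Cd200 (0.30, SE 0.22) in DZ, and of Nt5e (0.47, SE 0.25), Cd200r1 (-0.55, SE 0.33) and Entpd1 (-0.26, SE 0.27) in ADZ. Nt5e encodes CD73, which makes adenosine, and its unadjusted p in DZ was 0.0178.

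Of 14 T cell genes, 1 was higher in A than in P, 2 in DZ and 2 in ADZ, beside 33.4%, 57.5% and 39.4% of the panel. Placebo replicate 4 had the highest T cell mean of the 23 tumours. The T cell mean of the other placebo tumours was 5.66, below those of A (5.75), DZ (5.80) and ADZ (5.84), whereas that of all 6 placebo tumours was 6.02. The smallest p were those of Cd8b1 (-0.43, SE 0.38), Cd3d (-0.41, SE 0.38) and Cd27 (-0.38, SE 0.43) in A, of Cd3g (-0.44, SE 0.33), Cd8a (-0.34, SE 0.38) and Lck (-0.27, SE 0.32) in DZ, and of Cd3g (-0.31, SE 0.33), Cd6 (0.30, SE 0.37) and Cd3e (-0.38, SE 0.48) in ADZ. Among 9 cytotoxic genes, Gzmm (-0.61, SE 0.28, unadjusted p = 0.0445), Gzma (-0.40, SE 0.35) and Ctsw (-0.32, SE 0.41) led in A, Gzmb (-0.24, SE 0.29), Gzmm (-0.16, SE 0.27) and Ctsw (-0.21, SE 0.39) in DZ, and Fasl (-0.39, SE 0.28), Gzmm (-0.33, SE 0.27) and Ctsw (-0.32, SE 0.39) in ADZ.

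Among 12 regulatory T cell and exhaustion genes, Tnfrsf4 (0.30, SE 0.19), Il2ra (-0.24, SE 0.19) and Eomes (-0.52, SE 0.46) led in A, Tnfrsf9 (0.46, SE 0.24), Eomes (-0.24, SE 0.44) and Il10 (-0.10, SE 0.25) in DZ, and Tnfrsf4 (0.27, SE 0.18), Tnfrsf9 (0.26, SE 0.24) and Eomes (-0.45, SE 0.44) in ADZ. Tnfrsf9 encodes the costimulatory receptor 4-1BB of activated T cells, and it was lower in A than in DZ by the smallest adjusted p of the list (-0.57, SE 0.18, adjusted p = 0.743).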
